A study of Homo sapiens with 6 samples.

Results

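G-quadruplex motif peaks that hold neither a telomeric nor a long polypurine repeat made up 134 of the 6813 UCHL1 ChIP-seq peaks in the 3 deposited lists. A peak was taken as a motif peak when its hg19 sequence held, on either strand, 4 runs of at least 3 G separated by loops of 1 to 7 bases. Peaks were left out when they held 2 consecutive telomeric hexamers (TTAGGG, or CCCTAA on the other strand). They were also left out when a purine or pyrimidine run of 30 or more bases with a G (or C) content of 20% or more was present. The choice used sequence alone and no measured value. Sequence was readable in 6778 peaks, and 35 peaks with over 50% undetermined bases were not classified.

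The series measured where UCHL1, a deubiquitinating enzyme best known from neurons, was found on DNA after cross-linking of 2 human cell lines. DU 145 is a prostate cancer line derived from a brain metastasis, and HEK293T is an embryonic kidney line that carries the SV40 large T antigen. DU 145 cells were cross-linked with 1% formaldehyde only, or with 1 mM DSP, a lysine-reactive protein cross-linker, followed by formaldehyde, and HEK293T cells received the dual treatment only. Each condition had 1 UCHL1 ChIP library and 1 input library, so no value below has a replicate check. The same mouse monoclonal UCHL1 antibody was used in all 3 ChIP libraries. The labels give 1% formaldehyde for the dual treatment also, whereas the study's methods give a lower concentration there. According to the same methods, the formaldehyde-only chromatin was sonicated and the dual cross-linked chromatin was digested with micrococcal nuclease, so cross-linker and fragmentation cannot be told apart between the DU 145 lists.

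A G-quadruplex is a folded form of a G-rich single strand in which guanines pair in stacked planar tetrads, held together by potassium ions. Such sequences are common in telomeres, in promoters of growth-related genes and in ribosomal DNA. The motif is a sequence pattern, and whether these sites fold in the cells was not measured.

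The motif peaks were not of 1 sequence kind, which the strongest sites and the sites found in more than 1 list show best. Sequences are given from 5′ to 3′ on the G-rich strand of hg19, with the bases of the motif in capitals. The intron of SMOC1, which codes for a secreted calcium-binding matrix protein, held a motif peak in both DU 145 lists, with G runs joined by AGGTA or AGGTAA:
DU 145 formaldehyde SMOC1, chr14:70391470-70391523, plus strand: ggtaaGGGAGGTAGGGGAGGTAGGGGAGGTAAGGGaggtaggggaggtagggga
DU 145 dual SMOC1, chr14:70391465-70391528, plus strand: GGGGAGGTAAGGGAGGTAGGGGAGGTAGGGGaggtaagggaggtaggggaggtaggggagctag
An intergenic site on chromosome 2 consisted of tandem GGGAT and related GGATA units, and was called in both DU 145 lists:
DU 145 formaldehyde chromosome 2 repeat, chr2:117835448-117835518, minus strand: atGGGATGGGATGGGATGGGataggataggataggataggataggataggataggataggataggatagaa
DU 145 dual chromosome 2 repeat, chr2:117835463-117835591, minus strand: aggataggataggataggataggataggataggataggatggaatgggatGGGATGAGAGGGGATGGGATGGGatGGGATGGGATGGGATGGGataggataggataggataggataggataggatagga
The strongest motif peak of the DU 145 formaldehyde list lay upstream of FLT4, and the strongest of the dual list at the start of NINJ2:
DU 145 formaldehyde FLT4 upstream, chr5:180085718-180085786, plus strand: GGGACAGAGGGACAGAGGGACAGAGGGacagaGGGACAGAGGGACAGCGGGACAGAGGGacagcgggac
DU 145 dual NINJ2, chr12:752460-752527, plus strand: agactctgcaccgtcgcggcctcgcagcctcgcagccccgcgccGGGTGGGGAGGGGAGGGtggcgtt
Other promoter sites were at ALX4 and ANKRD13D, and at NT5DC3, which held GGGAT units:
DU 145 dual ALX4, chr11:44330701-44330791, minus strand: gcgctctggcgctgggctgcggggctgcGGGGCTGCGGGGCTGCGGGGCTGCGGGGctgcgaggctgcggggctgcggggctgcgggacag
DU 145 formaldehyde ANKRD13D, chr11:67057076-67057126, minus strand: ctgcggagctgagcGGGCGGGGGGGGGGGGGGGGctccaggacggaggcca
DU 145 dual NT5DC3, chr12:104234157-104234253, minus strand: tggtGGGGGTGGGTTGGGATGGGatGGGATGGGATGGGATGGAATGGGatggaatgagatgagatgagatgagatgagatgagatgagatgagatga
The last sequences stand for 2 further kinds. The kind called telomere-like held at least 1 telomeric hexamer but no 2 consecutive ones, and the chromosome 6 peak held only 1. The other kind is the spacer of the 5S rRNA gene array:
DU 145 dual BET1L intron, telomere-like, chr11:176251-176354, minus strand: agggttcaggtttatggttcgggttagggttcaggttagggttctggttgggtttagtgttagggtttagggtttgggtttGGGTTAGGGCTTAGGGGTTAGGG
DU 145 dual chromosome 6, telomere-like, chr6:30019012-30019103, plus strand: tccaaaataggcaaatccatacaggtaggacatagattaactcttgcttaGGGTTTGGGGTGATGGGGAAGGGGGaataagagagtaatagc
HEK293T dual 5S array, motif and flanks, chr1:228747111-228747173, plus strand: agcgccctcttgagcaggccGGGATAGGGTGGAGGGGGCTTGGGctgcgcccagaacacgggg

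The motif peaks numbered 28 of 3064 readable peaks (0.914%, 95% Wilson interval 0.633 to 1.32%) with formaldehyde in DU 145. There were 48 of 1523 (3.15%, 2.39 to 4.15%) with dual cross-linking in DU 145, and 58 of 2191 (2.65%, 2.05 to 3.41%) in HEK293T. The intervals cover counting error only, since peaks of 1 library are not replicates and the share was not tested between lists. In all, 467 readable peaks held the motif, of which 229 held the telomeric repeat and 104 a polypurine run, so the 134 motif peaks were the remainder.

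The share was compared with hg19 intervals that had the length and chromosome of each peak, 100 per peak, as a description of the genome and without a test. The same rule was met by 0.737% of the intervals for the DU 145 formaldehyde list, 1.38% for the dual list and 2.82% for HEK293T. Motif peaks were therefore 2.29 times as frequent as the intervals in the DU 145 dual list, 1.24 times in the formaldehyde list and 0.938 times in HEK293T. Peaks of the formaldehyde list were AT-rich, with a median GC content of 30.3%. When intervals were also matched on GC content within 2 percentage points, their share was 0.335%, 1.72% and 4.11%, and the ratios became 2.73, 1.83 and 0.645. Fewer than 100 such intervals were found for 119, 9 and 1 peaks. The dual list of DU 145 was above both kinds of interval beyond the counting error of its share. Of its 48 members, 14 held at least 3 tandem GGGAT units, which 0.00197% of either kind of interval held. A further 8 held a telomeric hexamer. Both kinds are described below, and the share without them was not set beside the intervals. The HEK293T share was within counting error of the length-matched intervals and below the GC-matched ones.

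The rule lets a loop itself consist of G, so an unbroken G run of 15 or more bases meets it. Only 13 of the 28 formaldehyde motif peaks (46.4%) had 4 separate G runs whose loops start and end with another base, against 43 of 48 (89.6%) in the dual list and 57 of 58 (98.3%) in HEK293T. Among length-matched intervals that met the rule, 94.4 to 95.4% had 4 separate runs. Counting only such peaks, the share fell from 0.914 to 0.424% (0.248 to 0.725%) in the formaldehyde list, where the length-matched intervals gave 0.696% and the GC-matched ones 0.317%. In the dual list it was 2.82% (2.10 to 3.78%), against 1.30% and 1.65% of intervals. In HEK293T, with the 14 peaks of the gene array again counted singly, it was 2.60% (2.01 to 3.36%), against 2.69% and 3.95%.

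**Figure D1:**
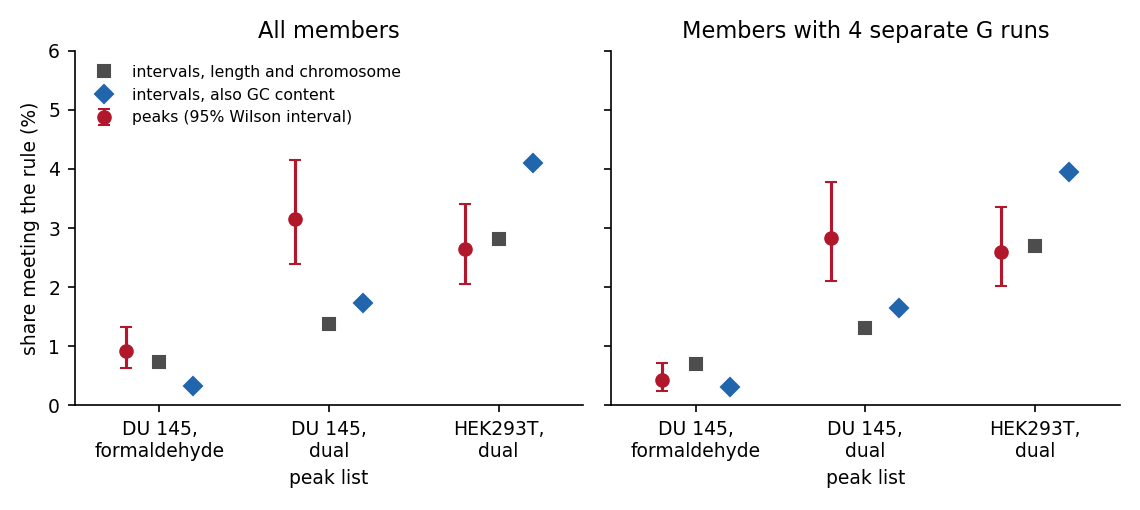
Share of readable peaks that meet the motif rule (red circles, bars show the 95% Wilson interval) in each of the 3 peak lists, beside the share of hg19 intervals matched on length and chromosome (squares) and also on GC content (diamonds), in percent. In the left panel the DU 145 dual list (3.15%) lies above its intervals (1.38 and 1.72%), and in the right panel, limited to 4 separate G runs, the formaldehyde list drops to 0.424%.

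By sequence the motif peaks fell into different kinds in the 3 lists, which were named after the sequences had been seen. A G run of at least 10 bases was present in 16 of 28 formaldehyde motif peaks (57.1%, 39.1 to 73.5%), in 5 of 48 in the dual list (10.4%, 4.53 to 22.2%) and in 0 of 58 in HEK293T. These runs were 11 to 24 bases long in the formaldehyde list and 11 to 16 bases in the dual list. The ANKRD13D sequence shown above, with a run of 16, is the strongest example. Over all readable peaks, 31 formaldehyde peaks (1.01%), 7 dual peaks (0.460%) and 1 HEK293T peak (0.0456%) held such a run. The matching intervals of the same length and chromosome held one in 0.0186, 0.0414 and 0.0853%.

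At least 3 tandem GGGAT units, on either strand, occurred in 14 of 48 motif peaks of the dual list (29.2%, 18.2 to 43.2%), in 1 of 28 of the formaldehyde list and in 0 of 58 in HEK293T. The dual list held 15 such peaks in all (0.985% of its readable peaks), against 0.00197% of length-matched intervals. The number of units ran from 3 to 15 in the dual list. The 14 peaks lay on several chromosomes, 6 of them intergenic and 4 inside protein-coding genes, among them ZNF185, which codes for an actin-associated LIM domain protein. The ZNF185 peak, at chrX:152080174-152080523, held 10 motifs and 30 tags at a fold enrichment of 29.4 and an FDR of 0%. Some of the 14 lie in repeated sequence, since 2 of them had a summit whose surrounding 50 bases occur elsewhere in hg19. The one with 15 units, at chr18:66294033-66294125, had 41 such places, and the one at chr21:19690021-19690143 had 37.

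At least 1 telomeric hexamer, but no 2 consecutive ones, occurred in a further 8 motif peaks of the dual list and 4 of HEK293T. Of the 8 in the dual list, 6 held at least 2. The 4 of HEK293T held only 1 each, in peaks of 175 to 1760 bases. How many of all readable peaks hold such a hexamer was not counted. The BET1L intron peak shown above had 7 hexamers interspersed with variants of the repeat. It lay within 500 bases of telomeric-repeat peaks of both other lists, and a limit of 1 hexamer in place of 2 would have left it out. With every peak that held a hexamer left out, 27, 39 and 54 motif peaks remained. None of these 4 kinds was present in 11 formaldehyde, 21 dual and 40 HEK293T motif peaks.

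**Figure D2:**
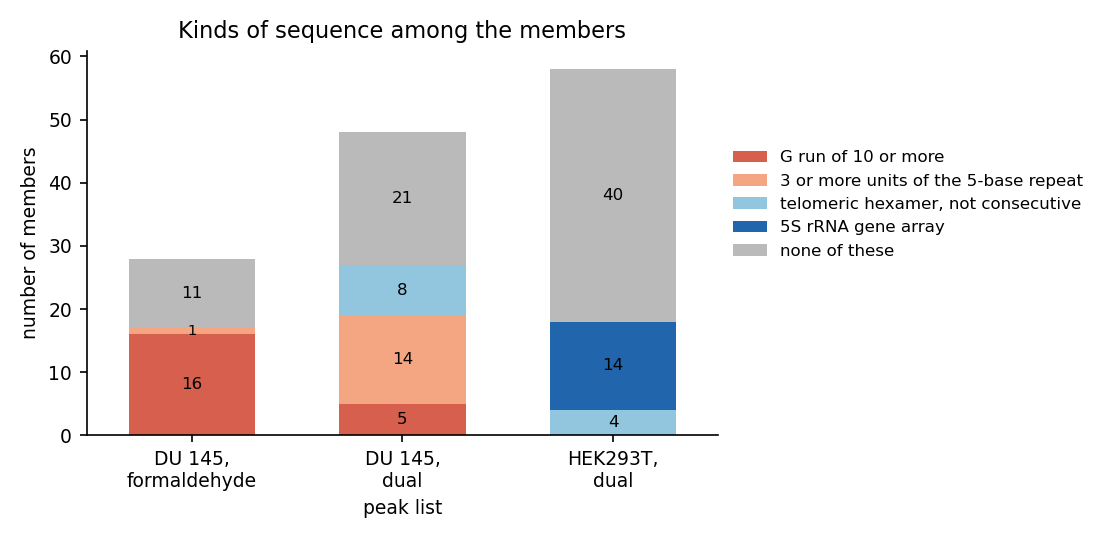
Number of motif peaks in each list by kind of sequence, stacked. Of the formaldehyde members 16 held a G run of 10 or more bases, 14 of the dual members held the 5-base repeat GGGAT at least 3 times, and 14 of the HEK293T members lay in the 5S rRNA gene array.

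Between starts of successive runs of at least 3 G, a distance of 5 bases was the most frequent in the dual list, with 164 of 408 distances (40.2%), and in the formaldehyde list, with 35 of 104 (33.7%). A distance of 6 bases, the period of the telomeric repeat, followed in the dual list with 74 (18.1%). In HEK293T a distance of 5 made up 65 of 784 (8.29%), and 10 was the most frequent with 190 (24.2%). The motif rule itself limits the length of the loops, and so favours short distances between successive runs. Distances were not computed for the intervals that met the same rule, so the frequency of a given distance has no background to be compared with. The distances are unevenly shared among the peaks. The RASGRF1 peak gave 21.2% of those in the formaldehyde list, 15 of them of 5 bases, and without it a distance of 5 was still the most frequent, with 20 of 82 (24.4%). The ZNF185 peak gave 11.5% in the dual list, where 134 of 361 (37.1%) were of 5 bases without it. In HEK293T 1 peak in an intron of TEX19 gave 21.3%, and without it a distance of 10 fell from 24.2 to 8.10% and 5 became the most frequent, with 65 of 617 (10.5%). The lead of 10 bases in HEK293T thus rested on that peak. In the TEX19 peak, at chr17:80317242-80319001, the starts of successive G runs were most often 10 bases apart. This peak, 1760 bases long and with an FDR of 12.5%, held 32 motifs and 616 tags, the latter the highest number of any motif peak. A second TEX19 motif peak lay beside it with 8 motifs, 110 tags and an FDR of 0.8%. Their fold enrichments were 4.62 and 6.43. TEX19 is a gene expressed mainly in germ cells.

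The position of the motif within the peak differed between the lists. The summit, the position of the highest tag pile-up, lay inside a motif in 21 of 28 formaldehyde motif peaks (75.0%) and in 25 of 48 dual ones (52.1%), but in 7 of 58 in HEK293T (12.1%). The motifs covered a median of 33.5, 33.1 and 15.2% of the bases of the peak in the 3 lists, which bears on how often a summit falls inside one. The median distance from summit to nearest motif was 0 bases in both DU 145 lists and 39.5 bases in HEK293T, where it reached 366 bases. When 50 bases on each side of the summit were read in place of the deposited extent, the rule was met by 26 HEK293T peaks (1.19%), 23 of them among the 58, and in the DU 145 lists by 35 (1.14%) and 47 (3.09%), which included all 28 and 40 of the 48. The motif of most HEK293T members thus lay away from the point of strongest signal. HEK293T motif peaks had a median length of 176.5 bases, against 69.5 and 102 in the formaldehyde and dual lists. The HEK293T values of this paragraph include the 14 members in the 5S array described below. Those were 186 to 558 bases long, with summits 40 to 323 bases from the motif. All 7 summits inside a motif were therefore among the 44 other members, and the medians were not computed without the array.

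**Figure D3:**
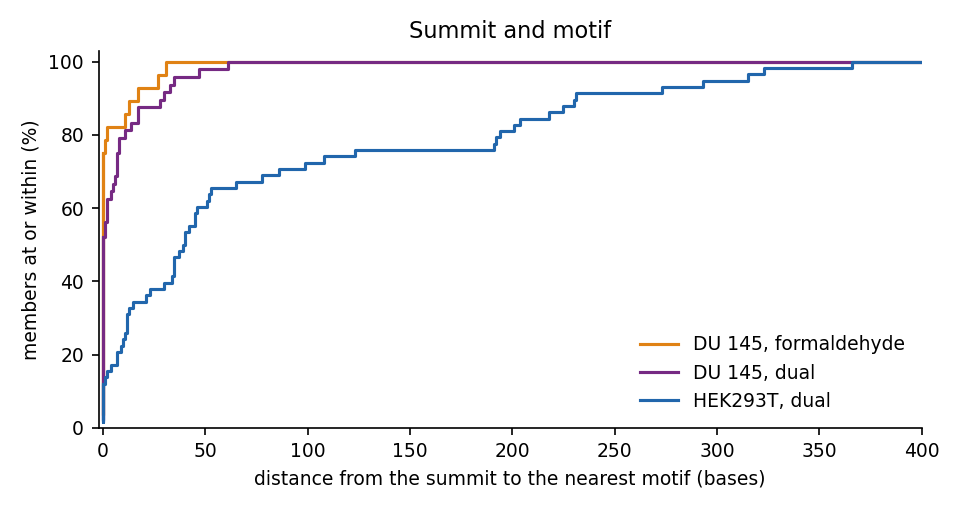
Cumulative share of motif peaks (%) by the distance in bases from the peak summit to the nearest motif, 0 meaning that the summit lies inside it, with 1 line per list. The curves start at 75.0% for DU 145 formaldehyde, 52.1% for DU 145 dual and 12.1% for HEK293T, whose distances reach 366 bases.

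The largest single group in HEK293T lay in the array of 5S rRNA genes on chromosome 1, whose genes, transcribed by RNA polymerase III, encode the small RNA of the large ribosomal subunit in tandem. hg19 holds 17 annotated genes there, all on the minus strand, from chr1:228746015-228781905. HEK293T had 20 peaks in the array and both DU 145 lists together had 0. Of these 20, 14 were motif peaks, which is 24.1% (15.0 to 36.5%) of the HEK293T members. The same 24-base motif, shown above in the 5S array line, was present in 13 of the 14, on the strand opposite to the 5S transcript. It lay 976 to 998 bases upstream of the 5S transcript start and recurred 17 times in the array, every 2203 to 2242 bases.

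The 14 motif peaks in the array held 17 to 88 tags, with a median of 73, at a fold enrichment of 4.47 to 10.9, with a median of 6.49. The 6 other array peaks did not extend over the motif and held 14 to 69 tags at 4.31 to 17.5. Of the 14, 11 had an FDR of 5% or less. In 13 of the 14 the 50 bases around the summit occurred 14 to 17 times in hg19, and how reads that fit several places were mapped is not given in the sources used here. The 14 peaks are therefore not 14 separate measurements of the array. Without them HEK293T had 44 motif peaks.

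**Figure D4:**
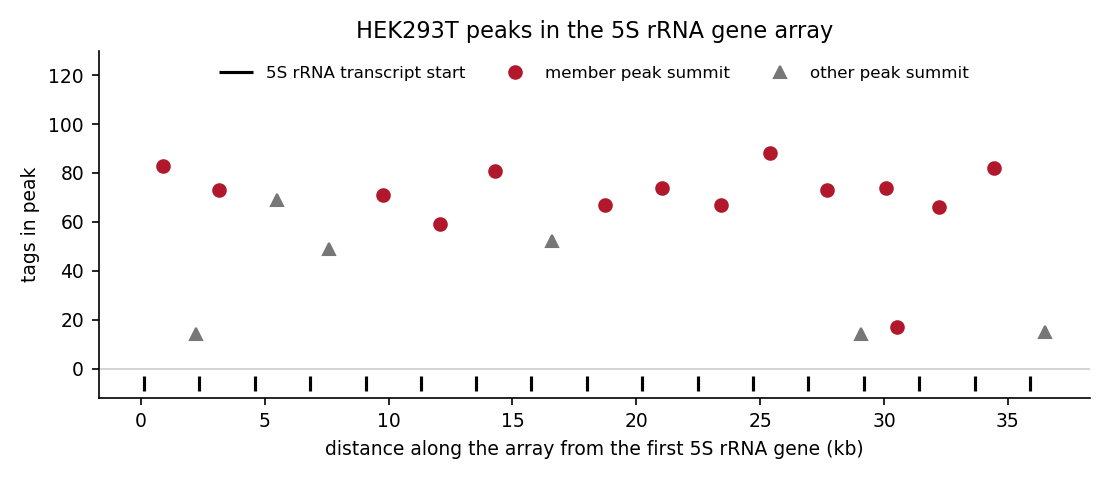
Tags per peak (vertical axis) of the 20 HEK293T peaks in the 5S rRNA gene array by the distance of the summit from the first gene in kb, with black ticks at the 17 transcript starts (transcription runs to the left). Of the 14 motif peaks (red circles) all but 1, with 17 tags, held 59 to 88 tags, and the summits recur along the whole array.

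In strength the motif peaks were close to the other peaks of their list. The median fold enrichment over input was 18.6 for the 28 formaldehyde motif peaks (4.58 to 64.3), against 15.97 for the other 3036 readable peaks. It was 19.9 (3.67 to 47.7) against 17.0 in the dual list. In HEK293T it was 11.0 (3.87 to 24.9) against 13.4, and without the 5S array it was 13.6. The distribution-free 95% interval of the members' median, which covers the spread among peaks only, was 11.3 to 31.02, 16.5 to 23.9 and 8.35 to 13.6. It contained the median of the other peaks in all 3 lists. The formaldehyde median joins unlike members. The 16 with a G run of at least 10 bases had a median of 10.5 (4.58 to 43.4), and the 12 without one had 27.5. By tags the medians were 7 against 7, 9 against 8, and 17 against 12 in HEK293T, where 12 remained without the 5S array. Telomeric-repeat peaks had higher medians, of 31.02, 37.4 and 22.1, and polypurine peaks had medians of 20.6, 22.7 and 10.4.

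The FDR, a percent that the peak caller estimates by exchanging ChIP and input, was 5% or less in 2 of 28 formaldehyde motif peaks (7.14%, 1.98 to 22.6%), against 1.93% of all readable peaks of that list. These were the FLT4 and RASGRF1 sites, and 0 of the 16 members with a G run of at least 10 bases met it. In the dual list it was met by 39 of 48 (81.2%, 68.1 to 89.8%), against 68.2% of all peaks. In HEK293T it was met by 20 of 58 (34.5%, 23.6 to 47.3%), against 17.8% of all peaks, and by 9 of 44 (20.5%, 11.2 to 34.5%) without the 5S array. Without the array the HEK293T share thus differed from the background by less than its counting error.

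**Figure D5:**
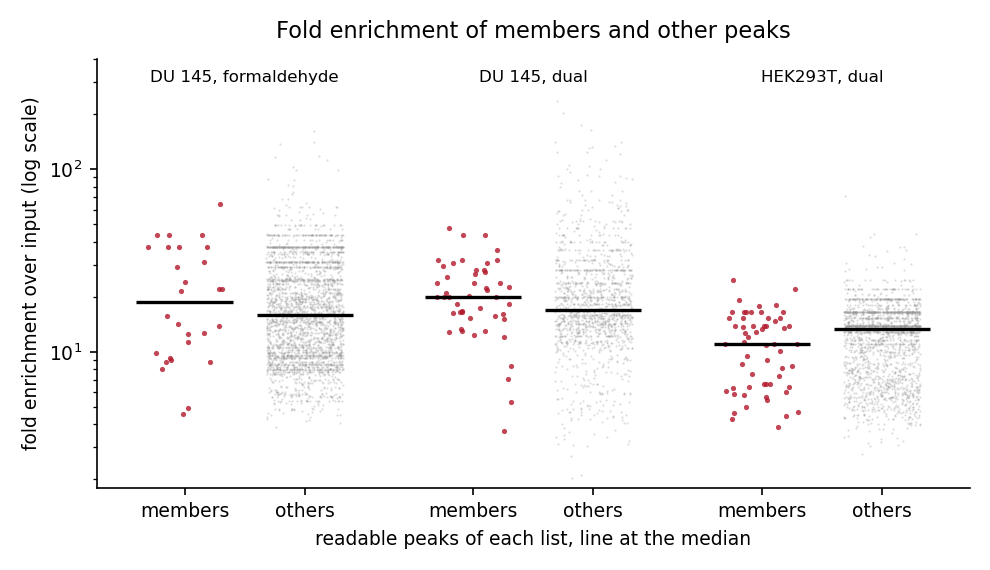
Fold enrichment over input (log axis) of every motif peak (red) and every other readable peak (grey) in each list, with a line at the median. Members overlap the other peaks throughout, with medians of 18.6 against 15.97, 19.9 against 17.0 and 11.0 against 13.4, and no member reaches the strongest other peaks.

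Single sites show the range. The strongest motif peak of all, 9127 bases upstream of the nearest coding start of FLT4, the receptor of lymphatic growth factors VEGF-C and VEGF-D, held 11 tags at a fold enrichment of 64.3 and an FDR of 4.08%. The 50 bases at its summit occur 3 times in hg19. The next in the formaldehyde list were 3 sites with a G run, each with 7 tags and a fold enrichment of 43.4. They lay in the first part of ANKRD13D, in an exon of CLASP1, a microtubule plus-end protein, and 14412 bases upstream of GOPC, a Golgi PDZ protein. The FDR of these was 7.14, 9.92 and 9.92%. With 7 tags behind them, such fold values rest on few reads.

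In the dual list the strongest were NINJ2, an adhesion molecule gene, with 13 tags at 47.7 and an FDR of 0.69%, and ALX4, a homeobox transcription factor gene, with 12 tags at 43.8 and an FDR of 1.93%. An intergenic site at chr2:153779483-153779537 had 11 tags at 43.8 and an FDR of 0.74%. A site in an intron of VWA3B had 11 tags at 31.9 and an FDR of 1.37%. All 4 had a summit sequence that occurs once in hg19.

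The strongest in HEK293T was a site upstream of ZBTB5, a BTB zinc finger gene, with 12 tags at 24.9 and an FDR of 21.6%. It was followed by a site 528357 bases upstream of TOX, with 9 tags at 22.1 and an FDR of 31.9%. The third, in the last part of chromosome 21 at chr21:48119267-48119692, held 41 tags at 19.1 and an FDR of 3.23%. An intergenic peak at chr2:240628616-240628743 had 13 tags at 18.0 and an FDR of 28.0%. A peak in an intron of MED16, a subunit of the Mediator complex, had 17 tags at 17.8 and an FDR of 1.53%. Of these 5, 2 met an FDR of 5%.

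Overlap with the other lists was below that of all peaks, beyond counting error, in the DU 145 dual list, while the intervals of the other lists included the background. By the midpoint rule of the study, in which the centre of a peak lies within the other, 4 of 28 formaldehyde motif peaks (14.3%, 5.70 to 31.5%) overlapped a peak of another list, against 6.49% of all readable peaks. In the dual list 2 of 48 did (4.17%, 1.15 to 14.0%), against 16.2% of all peaks, and in HEK293T 1 of 58 (1.72%, 0.305 to 9.14%), against 5.80%. Telomeric-repeat peaks overlapped another list in 97.5, 43.8 and 98.0% of cases, and polypurine peaks in 50, 29.0 and 40%. Peaks with none of these sequences did so in 2.68, 11.2 and 3.48%. The share of all peaks thus includes telomeric and polypurine peaks, which the rule leaves out of the members. Beside the peaks with none of these sequences, the members' interval included the share in the dual list and in HEK293T. It lay above that share in the formaldehyde list. The low count in HEK293T is for members that include 14 array peaks with no DU 145 counterpart.

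The 4 shared sites can be read in each list. At SMOC1 the formaldehyde peak had 6 tags (fold enrichment 37.2, FDR 11.9%) and the dual peak 15 tags (31.8, 0.72%). At the chromosome 2 repeat the formaldehyde peak had 6 tags (37.2, 18.3%) and the dual peak 14 tags (35.9, 1%). At RASGRF1 the formaldehyde peak had 15 tags (37.6, 4.82%) and the dual peak 35 tags (27.7, 0%). RASGRF1 codes for a guanine nucleotide exchange factor. The formaldehyde peak there overlapped no HEK293T peak by the midpoint rule. The study, however, reports UCHL1 at an intron of this gene in both cell lines, from a separate ChIP assay of selected sites. The RASGRF1 peak of the dual list is longer and counts as polypurine over that extent. At the site upstream of ZBTB5 the formaldehyde peak had 12 tags (12.4, 25.0%) and the HEK293T peak 12 tags (24.9, 21.6%). At this site the FDR was above 5% in both lists. All 3 sites shared by the DU 145 lists held more tags with dual cross-linking, but the libraries' depths are not known and tags were not scaled.

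By the midpoint rule 0 motif peaks of the dual list overlapped a HEK293T peak (Wilson interval up to 7.41%), against 7.49% of all dual peaks. Among dual peaks with no motif, telomeric or polypurine sequence it was 5.82%, which lies within that interval. One pair of motif peaks from these lists came close, at chr21:48119678-48119786 in the dual list and chr21:48119267-48119692 in HEK293T, which share 15 bases. Within 500 bases, 8 dual motif peaks lay near a peak of another list, some of them telomeric. No site held a motif peak in all 3 lists.

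The promoter share of motif peaks was within counting error of that of all peaks in each list. The summit lay within 1 kb of a protein-coding transcript start in 1 of 28 formaldehyde motif peaks (3.57%, 0.633 to 17.7%), against 2.15% of all readable peaks. It did so in 3 of 48 of the dual list (6.25%, 2.15 to 16.8%), against 2.43%, and in 3 of 58 of HEK293T (5.17%, 1.77 to 14.1%), against 9.49%. Among length-matched hg19 intervals that met the motif rule, 15.4, 12.4 and 12.7% had their midpoint in such a promoter, and 2.71, 2.69 and 3.22% of all intervals did. With GC content matched as well, the motif intervals gave 7.97, 7.81 and 11.0%. The promoter share of the motif peaks was below that of the length-matched motif intervals in all 3 lists, but with 1 to 3 peaks per list the Wilson interval included the interval share each time.

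The 7 promoter sites were ANKRD13D, NINJ2, ALX4, NT5DC3, STX10, ZNF721 and RPL8. ANKRD13D codes for a ubiquitin-binding ankyrin repeat protein, and its peak lay 326 bases into the gene with the G run on the template strand. The NINJ2 peak, 309 bases downstream of the start, also lay in an exon of the antisense gene NINJ2-AS1. The ALX4 and NT5DC3 peaks lay in introns, with summits 960 and 811 bases downstream of the start, and NT5DC3 held 12 tags at 16.02 with an FDR of 1.93%. In HEK293T, STX10, which codes for a Golgi SNARE protein, held 9 tags at 16.6 with the summit 839 bases downstream. RPL8, a ribosomal protein gene, held 10 tags at 16.6 in an exon, and ZNF721, a zinc finger gene, 8 tags at 13.8 in an intron. The FDR was 31.9 to 32.2% at these 3 HEK293T promoters, so none of them met 5%, whereas all 3 promoter peaks of the dual list did.

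HEK293T motif peaks were more frequent just beyond the promoter window. Between 1 and 2 kb from a protein-coding start there were 10 of 58 (17.2%, 9.64 to 28.9%), against 8.63% of the other peaks (7.51 to 9.89%), and 0 in both DU 145 lists. This window was looked at after the values had been seen, and was not tested. Among the 10 were BRD2, a bromodomain protein gene, with 16 tags at 13.9 and an FDR of 4.20%, and RAB26, a small GTPase gene, with 15 tags at 15.4 and an FDR of 4.01%. They also included AURKB, a mitotic kinase gene, PYCR1, of proline synthesis, and one of the TEX19 peaks. BRD2 and RAB26 were the only ones of the 10 that met an FDR of 5%.

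In the dual list the summit lay in an intron in 32 of 48 motif peaks (66.7%, 52.5 to 78.3%), against 48.9% of the other peaks, and 31.2% were intergenic (19.9 to 45.3%) against 44.1%. The intron share was 53.6% against 58.5% in the formaldehyde list and 36.2% against 36.1% in HEK293T. These places count genes of any type. The summit was inside a protein-coding gene in 14 of 28 formaldehyde motif peaks (50%), against 48.4% of the other peaks. It was in 20 of 48 (41.7%) against 42.6% in the dual list and in 26 of 58 (44.8%) against 38.8% in HEK293T. Length-matched intervals that met the rule were inside such genes in 55.4, 51.2 and 53.9% of cases. In the 3 lists 11 summits lay in exons. The exon share in the formaldehyde, dual and HEK293T lists was 10.7% (3.71 to 27.2%), 2.08% (0.369 to 10.9%) and 12.1% (5.97 to 22.9%). Among the other peaks it was 3.79, 6.98 and 17.0%, which each interval included. Of the 11 summits, 7 were in HEK293T, at genes such as SRRM2 (a splicing factor), CBS (cystathionine synthesis) and NLGN2 (a synaptic adhesion protein). The FDR at these named genes was 32.9, 31.2 and 8.77%. Where the strand of the gene was unambiguous, the G-rich strand was the coding strand in 6 of 14, 10 of 19 and 11 of 25 peaks, close to an even division in each list.

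The gene lists gave few members. Motif peaks lay inside only 63 protein-coding genes in all, so a count of 0 in lists this short says little. The share over all genes was not computed. Of 13 genes known for G-quadruplexes in their promoters (KIT, BCL2, HRAS, VEGFA, HIF1A, PDGFA, PDGFRB, RB1, MYB, STAT3, KDR, RET and SRC), 0 had a motif peak within 1 kb of a coding start or inside the gene. Any readable peak was present at 2 of them, HRAS and STAT3. Of the 6 shelterin genes TERF1, TERF2, TERF2IP, TINF2, ACD and POT1, which code for the telomere-binding complex, 0 had a motif peak, and TERF1 and TERF2IP had another peak. Of 5 signalling genes named by the study (ARHGEF2, RASGRF1, MCF2, DOCK11 and DLC1), which were chosen on these samples, all 5 had a readable peak and only RASGRF1 had a motif peak.

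The 50 bases around the summit occurred more than once in hg19 in 3 of 28 formaldehyde motif peaks (10.7%), against 9.06% of the other peaks, and in 6 of 48 dual ones (12.5%) against 14.5%. In HEK293T it was 23 of 58 (39.7%) against 17.3%, and 10 of 44 (22.7%, 12.8 to 37.0%) without the 5S array, an interval that includes the share of the other peaks. The 134 peaks formed 127 loci when those within 500 bases were joined over the lists. Within 500 kb of a chromosome end there were 0, 4 and 3 motif peaks (0, 8.33 and 5.17%), against 1.96, 5.98 and 6.57% of all readable peaks. The Wilson interval of the members' share included that of all peaks in each list. The telomeric-repeat peaks numbered 43, 63 and 30 there.

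Some peaks lay close to the limits of the rule in each list. Loops of 8 to 12 bases would have added 8 formaldehyde, 20 dual and 61 HEK293T peaks, with median fold enrichments of 21.5, 17.4 and 12.5. Motif peaks with a purine or pyrimidine run of 20 to 29 bases numbered 7, 3 and 16, and motif-holding peaks left out for a run of 30 to 39 bases numbered 5, 9 and 0.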

How the data were processed

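Peak lists of 3 UCHL1 ChIP libraries, each called against its input, were analysed. SOLiD reads of 50 bases were mapped to hg19 by the authors with up to 2 mismatches, and peaks were called with MACS (version 1.4.2 per the labels) with a p threshold of 1e-05 and mfold limits of 10 and 30. The handling of reads with several places is not given in the sources used here. The deposited lists give positions, tag counts that the authors did not scale, a score (the MACS p as a negative log10 multiplied by 10), the fold enrichment (the ratio of tags to the local background) and the FDR in percent. Library totals are not in the lists, so the depth behind the tags is unknown.

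From these, the hg19 sequence of each peak was read and searched on both strands, and summits were annotated with GENCODE 44 mapped to hg19. Overlaps followed the study's midpoint rule. Intervals were drawn 100 per peak with a fixed seed. Shares carry 95% Wilson intervals (counting error only). No test was run, because each condition has 1 library. Sites were named by rule: all motif peaks overlapping another list, the 5 with the highest fold enrichment per list, the 10 strongest at promoters, and those at genes of 3 fixed lists; other sites named were chosen after their values were seen. The sequences of 3 sites and 1 listed gene are not reported here. The motif peaks, gene lists and rules were chosen with earlier results of these data known. The kinds of sequence, the requirement of 4 separate G runs, the distances without the peak that gave most of them and the results without the 5S array were added after the data had been seen. Alternatives covered the motif, the exclusions, the window, the FDR, copy number, merging, promoter width and overlap rule. The sequence, overlap, copy-number and interval steps were tested on simulated data. The tools were pysam 0.24.0, pandas 2.3.3, numpy 2.4.6, numba 0.67.0, scipy 1.17.1 and matplotlib 3.10.9 under Python 3.11.15.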

Additional observations from a re-analysis of the deposited data

How the results depend on the processing

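Of 81 alternative values, 53 stayed within the counting error or spread of the reported value and 28 moved beyond it. The share of motif peaks in the DU 145 formaldehyde list became 3.39% among peaks with an FDR of 5% or less (2 of 59) and 0.424% with 4 separate G runs. In the DU 145 dual list it became 4.46% with loops of 1 to 12 bases and 2.23% with loops of 1 to 3. In HEK293T it became 5.43% and 0.456% with those loops, 1.92% without runs of 20 purines or pyrimidines, 1.19% in the summit window, 5.14% among peaks with an FDR of 5% or less and 1.95% with single-copy summits. Matching intervals on GC content as well moved their share from 0.737 to 0.335%, from 1.38 to 1.72% and from 2.82 to 4.11%, in the order formaldehyde, dual, HEK293T.

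The promoter share of formaldehyde motif peaks was 17.9% with transcripts of any type and 0% of the 2 with an FDR of 5% or less. In the dual list it was 2.08% within 500 bases. In HEK293T it was 1.72% within 500 bases, 22.4% within 2 kb, 43.1% with transcripts of any type (14 of these 25 peaks lie at 5S rRNA genes) and 0% of the 20 with an FDR of 5% or less. In HEK293T the median fold enrichment was 13.8 with single-copy summits. The ratio of the members' median to that of the other peaks, 0.825 by fold enrichment, was 1.42 by tags and 1.05 by score, so the direction depends on the measure. The FDR share was 100% of the dual motif peaks at 10%, and 20.5% in HEK293T without the 5S array. Motif peaks overlapping another list rose from 2 to 8 in the dual list within 500 bases, and from 1 to 2 in HEK293T both with 1 shared base and within 500 bases. Apart from the construction of each alternative, the cause of these moves was not tested.

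No paired analysis was possible because each condition has 1 ChIP library and no result comes from a test. The weakest motif peaks rest on 6, 7 and 8 tags in the formaldehyde, dual and HEK293T lists, so single fold values carry wide counting error, and the depth behind the tags is unknown.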
